A study of Mus musculus with 16 samples.

Results

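RNA of mouse embryonic stem cells expressing CTCF with the K365T change was compared with RNA of cells expressing wild-type CTCF (WT), both in medium with leukemia inhibitory factor (LIF). The comparison holds 2 K365T libraries and 2 WT libraries, of 16 libraries in the series. Its members are the 17076 genes, of 55291 in the deposited table, whose normalised count averaged 10 or more across these 4 libraries. Gm15755 lay just inside this limit with a mean of 10.01, and Capn3 just outside with 9.999. Of the members, 13709 were protein coding and 485 were lincRNA in GENCODE M21, and 16701 (97.8%) had a single position there.

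All lines derive from E14Tg2a, a male mouse embryonic stem cell line of strain 129/Ola grown without feeder cells, and the protocol describes them as clones of it. Their endogenous CTCF carries an auxin-inducible degron, and both groups received 500 µM indole-3-acetic acid (IAA), the auxin analogue that triggers its degradation. Both also received 1 µg/ml doxycycline, which switches on the transgene coding for K365T or WT CTCF, and the protocol gives 2 days for these treatments. The serum medium held LIF, 3 µM CHIR99021, an inhibitor of the kinase GSK3, and 1 µM PD0325901, an inhibitor of the kinase MEK. The companion groups used below were K365T and WT cells kept for 3 days without these 3 additions (no LIF), and lines with the CTCF changes R342C and Q418R in LIF, each with 2 libraries and the same IAA and doxycycline. The labels name 1 line per genotype, so effects of the genotype and other differences between the lines cannot be told apart. They do not say whether the 2 libraries of a group came from separate cultures, so that p-values measure only the spread between these libraries.

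CTCF is a DNA-binding protein with a row of zinc fingers that recognise its binding sites. Bound CTCF halts cohesin as it extrudes chromatin loops and thereby sets domain boundaries, and at several imprinted loci it binds a control region on 1 parental allele. In embryonic stem cells its removal is known to weaken domain boundaries across the genome and to change the RNA of a limited share of genes at first. In the mm10 reference, the codon named by K365T in the 736-codon Ctcf reading frame is AAA, for lysine, at chr8:105670237-105670239 on the plus strand in exon 6. It lies within finger 4 of 10 fingers found by their cysteine and histidine spacing, residues 353 to 373. The reference bases of this finger, from exons 5 and 6 between chr8:105666763-105670263 without the intron, are shown because they locate the change, with the lysine codon in capitals.
Ctcf finger 4: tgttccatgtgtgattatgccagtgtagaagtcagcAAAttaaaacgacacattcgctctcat

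Ctcf itself had 6944 and 8585 normalised counts in the K365T libraries, against 6956 and 5853 in the WT libraries (log2 difference 0.27 ± 0.15, limma adjusted p = 0.269). The difference was within the spread of the libraries: K365T replicate 1 lay between the WT libraries and K365T replicate 2 above them. These counts do not separate transgene from endogenous transcripts, so they do not check the labelled codon. The 4 libraries held 21643305 and 23622882 recovered reads in K365T, against 31935381 and 22392930 in WT. Structural RNAs took 3.77% and 2.28% of reads in K365T, against 3.92% and 5.06% in WT. On a principal component analysis of all 16 libraries the medium separated the samples along component 1 (74.5% of variance). Component 2 (7.03%) placed K365T at -26.1 and -37.7 and WT at 24.4 and 26.0 in LIF, and component 3 (3.98%) set K365T replicate 1 apart from replicate 2, at 35.6 and 12.7.

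In LIF, 2073 of the 17076 genes passed the test (12.1%), by limma on log2(normalised count + 4) with Benjamini-Hochberg adjusted p under 0.05. Of these, 1209 were higher (7.08%) and 864 lower (5.06%) in K365T. A log2 difference of at least 1 was reached by 499 of the higher and 320 of the lower genes. The median difference over all members was -0.02, and the median standard error (SE) of a difference was 0.23. In all 2073 genes both K365T libraries lay on the same side of both WT libraries, an order also held by 27.5% of all members on the higher and 30.1% on the lower side. At an unadjusted p under 0.05 there were 4536 genes. On the deposited TPM values, which are scaled for gene length and to the same total in each library, 1511 genes passed and 78.8% of them were higher, beside 58.3% on normalised counts, and the median of all genes stood at 0.10. The count rests on all 4 libraries: it was 1083 without K365T replicate 1, 786 without K365T replicate 2, 776 without WT replicate 1 and 801 without WT replicate 2. In those fits the lone library was assumed to vary like the other groups. Where a gene described below with the values of its libraries lost its call in such a fit, its highest adjusted p over the 4 fits is given with the library left out, and genes given by their difference alone have the range of that p. All log2 differences are K365T minus WT on the log2(normalised count + 4) scale, given ± SE, and understate the change of genes with counts near 0.

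Much of the higher side came from a few chromosomes. Genes of chromosome 1 had a median difference of 0.47, with 296 of 1055 higher and 11 lower, and 87.0% of them lay above 0. Chromosome 11 had a median of 0.34, with 289 of 1306 higher and 15 lower. Chromosome 8 had a median of 0.21, with 92 of 872 higher and 10 lower. The end of chromosome 17, from 70 Mb onwards in mm10, a limit chosen after the values were seen, had a median of 0.82, with 62 of 100 higher and 1 lower. The other autosomes, with the rest of 17, had medians between -0.14 and -0.01, and the X chromosome stood at 0.01.

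The shift ran along whole chromosomes. All 18 windows of 10 Mb on chromosome 1 had medians above 0, between 0.32 and 0.64, as did all 13 on chromosome 8 and all 13 on chromosome 11. Of the 207 windows elsewhere 36 did. The medians of these 207 ran from -0.63 to 0.26, so single windows outside the 4 regions departed too. At 30 to 40 Mb of chromosome 16 the median was 0.26 in LIF and 0.34 without LIF. At 120 to 130 Mb of chromosome 3 it was -0.34 and -0.42. Against WT in LIF, R342C and Q418R stood at 0.03 and 0.01 in the window of chromosome 16. In that of chromosome 3 they stood at -0.29 and -0.15. The lowest window, at 150 to 160 Mb of chromosome 5, was also low in them, at -0.53 and -0.42. Against the mean of the WT libraries, chromosome 1 stood at 0.46 and 0.49 in the K365T libraries, with -0.01 and 0.01 in the WT libraries. Chromosome 11 stood at 0.35 and 0.34 in the K365T libraries, with 0.01 and -0.01 in the WT libraries, and chromosome 8 at 0.21 and 0.19, with values within 0.01 of 0 in WT. Without LIF, in libraries that share none with this comparison, the medians of K365T against WT were 0.42 for chromosome 1, 0.37 for chromosome 11, 0.19 for chromosome 8 and 0.70 for the end of 17. Against R342C in LIF they were 0.45, 0.35, 0.19 and -0.03 in the same order, and against Q418R 0.30, 0.32, 0.12 and -0.08. The end of 17 was thus level between K365T and the other mutant lines, which stood at 0.93 (R342C) and 0.87 (Q418R) against WT, while chromosomes 1, 8 and 11 were high in K365T against all 3 lines. Against WT, chromosomes 1 and 8 stood at 0.17 and 0.09 in Q418R and at 0.02 and 0.01 in R342C, and chromosome 11 lay within 0.03 of 0 in both. The number of chromosome copies was not measured here, and its part in these medians was not tested.

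**Figure D1:**
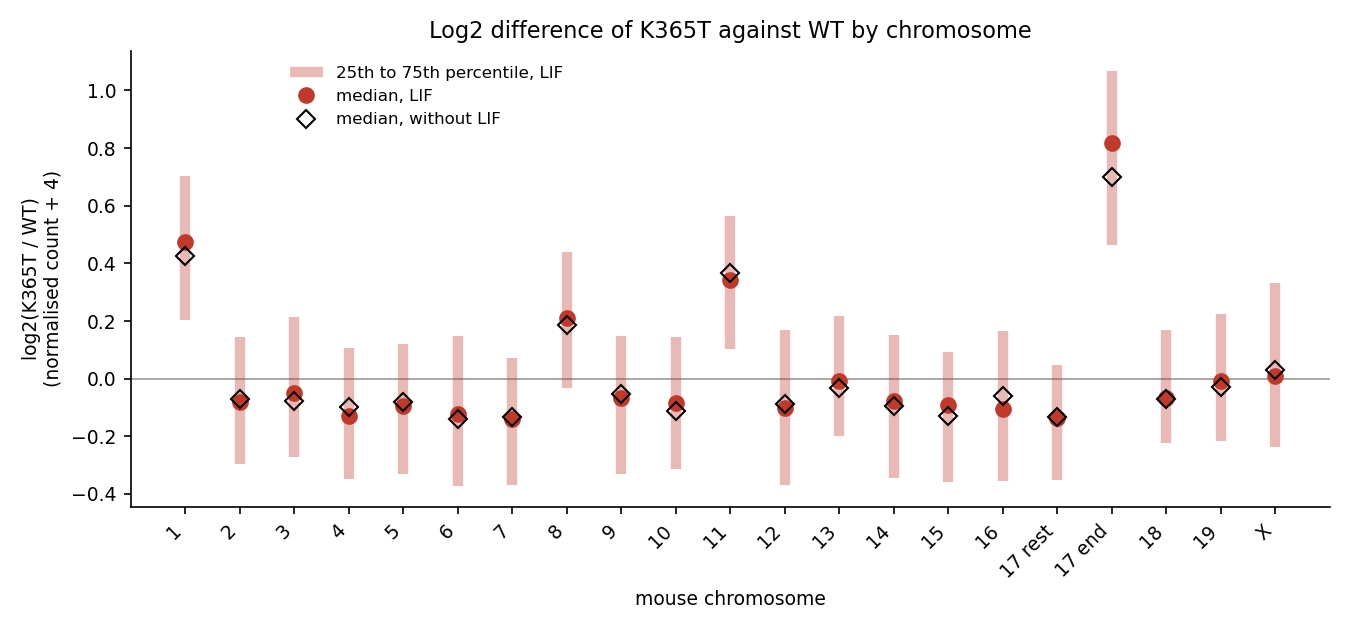
Log2 difference of K365T against WT for the genes of each chromosome, in LIF (filled points, medians, with bars from the 25th to the 75th percentile) and without LIF (open diamonds, medians). Chromosomes 1, 8, 11 and the end of 17 stand above 0 in both media, with LIF medians of 0.47, 0.21, 0.34 and 0.82, while the other autosomes lie between -0.14 and -0.01.

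Together these 4 regions held 19.5% of the members but 739 of the 1209 higher genes (61.1%) and 37 of the 864 lower genes (4.28%). The 13743 other genes held 470 higher and 827 lower ones, with a median of -0.08. After subtraction of each chromosome's median from its genes, 1084 genes passed (6.35%), 565 higher (3.31%) and 519 lower (3.04%). Called genes of the 4 regions are given with their location where they are described below.

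The most abundant genes that passed in these regions include housekeeping genes. On chromosome 1, Ncl, coding for the nucleolar protein nucleolin, had 46442 and 52939 normalised counts in the K365T libraries, against 35194 and 28331 in the WT libraries (log2 difference 0.65 ± 0.17, limma adjusted p = 0.025). Rpl7, a ribosomal protein gene, had 28242 and 28076 in K365T, against 20279.9 and 19526 in WT (log2 difference 0.50 ± 0.10, limma adjusted p = 0.0065). On chromosome 11, Npm1, coding for nucleophosmin, had 56927 and 66564 in K365T, against 48533 and 42691 in WT (log2 difference 0.44 ± 0.13, limma adjusted p = 0.0401), and Actg1, coding for cytoplasmic gamma-actin, had 35842 and 37280.0 in K365T, against 25816 and 20834 in WT (log2 difference 0.66 ± 0.17, limma adjusted p = 0.0232). These 4 rose by amounts near the medians of their chromosomes or somewhat above. At the end of 17 the mismatch repair gene Msh6 had 18963 and 23093 in K365T, against 8559 and 7562 in WT (log2 difference 1.38 ± 0.13, limma adjusted p = 7.56e-05), and Birc6, an inhibitor of apoptosis, had 9123 and 11334 in K365T, against 5231 and 5228 in WT (log2 difference 0.96 ± 0.14, limma adjusted p = 0.0012). On chromosome 8, Mcm5, a subunit of the replicative helicase chosen after its values were seen, had 8329 and 10404 in K365T, against 6927 and 5491 in WT (log2 difference 0.59 ± 0.16, limma adjusted p = 0.0259). In each of these genes, as in every gene that passed as higher, the K365T libraries lay above both WT libraries. Msh6 and Birc6 stayed under the threshold in all 4 leave-one-out fits, while the highest adjusted p of the others was 0.207 for Ncl, 0.0574 for Rpl7 and 0.259 for Npm1, all without WT replicate 2. Actg1 and Mcm5 reached 0.197 and 0.224 without the same library. With the chromosome median subtracted, Ncl (0.18), Rpl7 (0.03), Npm1 (0.09), Actg1 (0.32), Birc6 (0.14) and Mcm5 (0.38) no longer passed, and Msh6 did (0.56, adjusted p = 0.0214).

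Several of the largest rises were genes of the sex chromosomes. Kdm5d, a Y-linked demethylase of histone H3 lysine 4, had 181 and 211 normalised counts in the K365T libraries, against 10.9 and 17.3 in the WT libraries (log2 difference 3.49 ± 0.35, limma adjusted p = 9.2e-05). Scml2, an X-linked Polycomb-group gene known for its work in the male germline, had 1991 and 2137 in K365T, against 159.6 and 300.4 in WT (log2 difference 3.21 ± 0.30, limma adjusted p = 7.44e-05). Nxf3, an X-linked relative of the mRNA export factor Nxf1, had 646 and 623 in K365T, against 55.3 and 83.2 in WT (log2 difference 3.15 ± 0.26, limma adjusted p = 3.88e-05). Sh3bgrl, an X-linked gene for a small thioredoxin-like protein, had 558 and 440.3 in K365T, against 52.2 and 33.5 in WT (log2 difference 3.44 ± 0.24, limma adjusted p = 1.68e-05). In each of the 4 genes the K365T libraries lay close together and far above both WT libraries, and all 4 passed in each leave-one-out fit. On the Y chromosome, 3 of 14 members rose, beside 7.08% of all members: besides Kdm5d, Uba1y had 1302 and 1323 in K365T, against 542 and 604 in WT (log2 difference 1.19) and Zfy2 had 28.7 and 26.7 in K365T, against 3.89 and 4.32 in WT (log2 difference 1.97). Uty, with 963 and 1231 in K365T, against 991 and 1074 in WT, Ddx3y, with 3317 and 3548 in K365T, against 3405 and 3498 in WT, and Eif2s3y, with 2076 and 2057 in K365T, against 1830.1 and 2031 in WT, did not pass. Zfy2 was a member through its K365T counts alone, its WT counts being under 10.

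Autosomal genes were among the largest rises too. Igsf10, an immunoglobulin superfamily gene on chromosome 3, had 195 and 233 normalised counts in the K365T libraries, against 34.3 and 18.4 in the WT libraries (log2 difference 2.89 ± 0.43, limma adjusted p = 0.00101). Ccdc172, a coiled-coil gene on chromosome 19, had 188 and 246 in K365T, against 20.2 and 46.5 in WT (log2 difference 2.65 ± 0.47, limma adjusted p = 0.00299). Tmem132d, a transmembrane protein gene on chromosome 5, had 193 and 325 in K365T, against 35.0 and 40.0 in WT (log2 difference 2.62 ± 0.40, limma adjusted p = 0.00127). On chromosome 1, Ddr2, coding for a collagen-binding receptor tyrosine kinase, had 928 and 2202 in K365T, against 128 and 304 in WT (log2 difference 2.83 ± 0.51, limma adjusted p = 0.00335), and Trpa1, coding for an ion channel of sensory neurons, had 644 and 697 in K365T, against 82.5 and 122 in WT (log2 difference 2.69 ± 0.36, limma adjusted p = 0.000576). With the median of chromosome 1 subtracted, Ddr2 and Trpa1 kept differences of 2.36 and 2.22 and stayed under the threshold. All 5 genes passed in each leave-one-out fit.

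The largest falls lay outside the 4 regions. Clca3b, of a family named as chloride channel accessory genes, had 18.8 and 10.3 normalised counts in the K365T libraries, against 278 and 197 in the WT libraries (log2 difference -3.72 ± 0.38, limma adjusted p = 9.2e-05). Arhgef38, coding for a guanine nucleotide exchange factor, had 67.4 and 52.3 in K365T, against 667 and 572 in WT (log2 difference -3.29 ± 0.39, limma adjusted p = 0.00025). Mecom, a zinc-finger transcription factor gene of blood stem cells, had 60.8 and 38.0 in K365T, against 266 and 256 in WT (log2 difference -2.35 ± 0.34, limma adjusted p = 0.000899). These 3 genes lie on chromosome 3 at different places. Gja1, coding for the gap junction protein connexin 43, had 246 and 665 in K365T, against 1835 and 1570.0 in WT (log2 difference -2.06 ± 0.31, limma adjusted p = 0.00114). Tmsb4x, an X-linked gene for an actin-sequestering peptide, had 330.5 and 424 in K365T, against 2251 and 1349 in WT (log2 difference -2.21 ± 0.19, limma adjusted p = 5.46e-05). In all 5, as in every gene that passed as lower, both K365T libraries lay below both WT libraries. The K365T libraries of Gja1 differed more from each other than the WT libraries did. Cadps2 (-2.29), Dnah6 (-2.36), Gstm3 (-2.22), Sorcs2 (-2.13) and Antxr1 (-2.10) were also among the largest falls, with Peg3, described below. All of these falls passed in each of the 4 leave-one-out fits.

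Germline genes rose together. The list of germline and meiosis genes holds genes of the piRNA pathway, of the synaptonemal complex and of early germ cells, many of them known to be silenced in somatic cells by promoter methylation or by a Polycomb complex that binds E-box and E2F-type motifs. Of its 42 genes 37 were members, 21 of which rose in K365T and 1 fell, beside 7.08% and 5.06% of all members. The median difference of the 37 was 0.92, beside -0.02 over all members, and 31 lay above 0. The 15 members that did not pass had differences between -0.98 (Taf7l) and 1.01 (Mov10l1). The summed normalised counts were 24323 and 22596 for the 37 members in K365T, against 12759 and 14847 in WT. Asz1 alone was a member through K365T only, with a WT mean under 10, and of the 36 members with a mean of at least 10 in both groups 20 rose and 1 fell. With the chromosome median subtracted, 15 of the 37 passed as higher and none as lower. Outside the 4 regions 15 of 30 rose and 1 fell. Leaving out 1 library lowered the count of risen genes to 9 without K365T replicate 1, 14 without K365T replicate 2, 6 without WT replicate 1 and 12 without WT replicate 2, and Stra8, the fallen gene, passed in none of these fits. Both K365T libraries stood above both WT libraries in all 21, as in every gene that passed as higher and in 27.5% of all members.

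The steepest member was Asz1, a gene of the piRNA machinery of male germ cells, with 47 and 58 recovered reads in the K365T libraries, against 0 and 1 in the WT libraries. Its ratio, scaled for depth, was 123 (95% exact binomial interval 21.7 to 4923, counting error only). Nlrp4c, of a family expressed in oocytes, had 321 and 546 normalised counts in the K365T libraries, against 38.9 and 68.1 in the WT libraries (log2 difference 2.93 ± 0.35, limma adjusted p = 0.000268). Brdt, coding for the testis-specific BET bromodomain protein, had 330.5 and 493 in K365T, against 52.2 and 83.2 in WT (log2 difference 2.54 ± 0.31, limma adjusted p = 0.000308). WT counts of both genes were low but above 0 in each library. Sohlh2, a transcription factor gene of early germ cells, had 2302 and 2247 in K365T, against 572 and 707 in WT (log2 difference 1.83 ± 0.41, limma adjusted p = 0.0115). Piwil2, coding for a Piwi protein that binds piRNAs, had 868 and 630.2 in K365T, against 222 and 289.6 in WT (log2 difference 1.53 ± 0.22, limma adjusted p = 0.000738). Asz1, Nlrp4c, Brdt and Piwil2 passed in all 4 leave-one-out fits, and Sohlh2 reached 0.087 without WT replicate 1.

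Genes of meiotic chromosomes rose by smaller steps. Stag3, the cohesin subunit of meiosis, had 2134 and 2178 normalised counts in the K365T libraries, against 839.5 and 1103 in the WT libraries (log2 difference 1.16 ± 0.24, limma adjusted p = 0.00809). Hormad1, coding for a protein of unsynapsed meiotic axes, had 990.4 and 1117 in K365T, against 313 and 618 in WT (log2 difference 1.25 ± 0.34, limma adjusted p = 0.031). Syce1, coding for the central element of the synaptonemal complex, had 786 and 891 in K365T, against 336 and 439.8 in WT (log2 difference 1.11 ± 0.25, limma adjusted p = 0.0115), and Sycp1, coding for its transverse filament, had 133 and 95.5 in K365T, against 47.5 and 58.3 in WT (log2 difference 1.04 ± 0.31, limma adjusted p = 0.0458). In all 4, as in every gene that passed as higher, the lower K365T library lay above the higher WT library. Sycp3, of its lateral element, had 902 and 464 in K365T, against 719 and 780.2 in WT (log2 difference -0.21 ± 0.33, limma adjusted p = 0.746) and did not pass. Stra8, which licenses meiotic entry on retinoic acid, was the member that fell, with 947 and 724 in K365T, against 2291 and 1696 in WT (log2 difference -1.25 ± 0.37, limma adjusted p = 0.0425). Without WT replicate 1 the adjusted p was 0.0848 for Stag3, 0.283 for Hormad1, 0.11 for Syce1 and 0.236 for Stra8, and without K365T replicate 1 it was 0.234 for Sycp1. Other risers lay in the 4 regions: Mael of the piRNA pathway (1.29) on chromosome 1, Tex15 (0.85) on chromosome 8, and Tex14 (1.56), Tex19.1 (1.20), Tex19.2 (1.42) and Meioc (0.91) on chromosome 11. Tex11 (1.51), Tex101 (0.89), Tdrkh (1.41), Nlrp4f (1.57) and the RNA helicase gene Ddx4 (0.66), all outside these regions, were the remaining risers. Each of these 11 lost its call in at least 1 leave-one-out fit, with a highest adjusted p between 0.0558 (Tex15) and 0.396 (Ddx4), both without K365T replicate 1. Dazl, an RNA-binding protein gene of germ cells, had 1352 and 1653 in K365T, against 728 and 1142 in WT and did not pass (log2 difference 0.71 ± 0.28, limma adjusted p = 0.114).

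**Figure D2:**
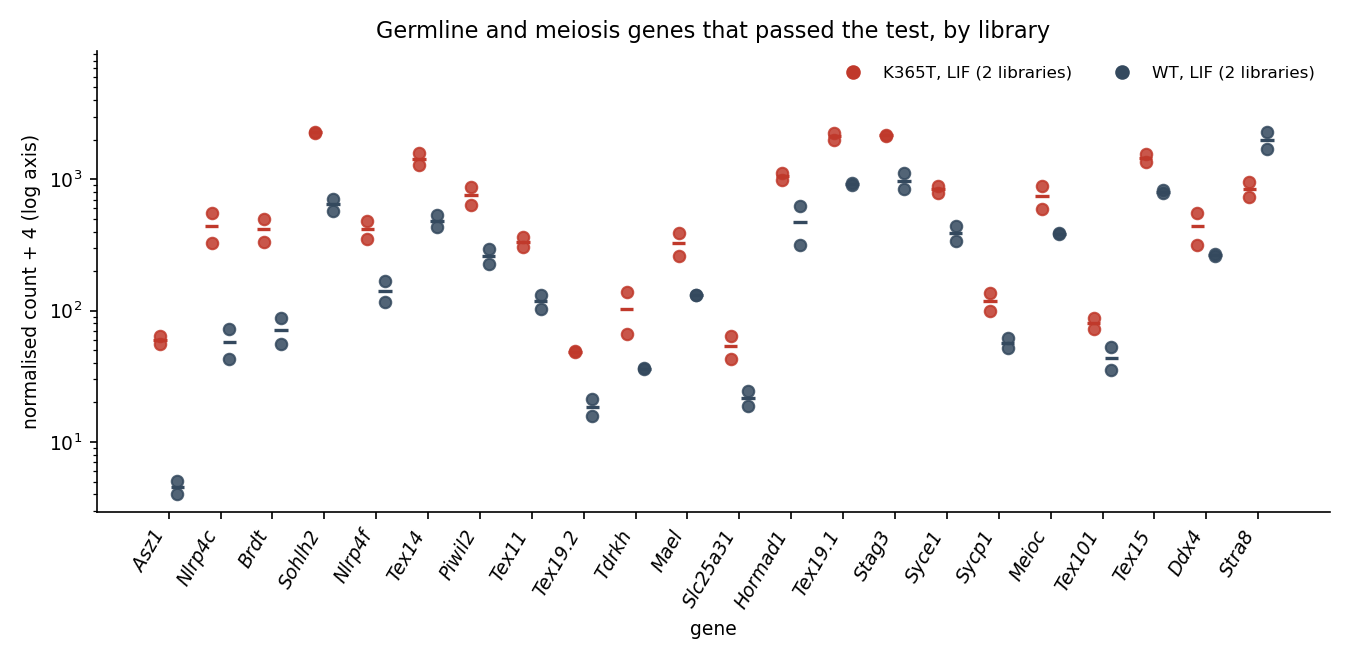
Normalised count plus 4 (log axis) of the 22 germline and meiosis genes that passed the test, in the 2 K365T libraries (left of each pair) and the 2 WT libraries in LIF, with short lines at the means. In 21 genes both K365T points stand above both WT points, and in Stra8 both stand below. Every gene that passed the test held such an order.

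Promoters of these genes are shown because 21 members rose together. RefSeq windows of GRCm38.p6, from 250 bases before to 50 after each start, were matched for 34 of the 37 genes (91.9%). The E-box CACGTG, which reads the same on both strands, was in 15 of the 34 (44.1%), beside 11.5% of the 11647 members with a matched promoter and 8.09% of all 27025 promoters in the table. The E2F-type motif TCCCGC or its reverse complement GCGGGA was in 13 (38.2%), near the 38.6% of members, beside 22.1% of all. An E-box was found in 7 of the 18 matched genes that rose and in 8 of the 16 that did not, a difference that was not tested. No matches overlapped in the bases printed here. The 250 bases before the start of 5 risen genes follow: 3 with an E-box, and the 2 genes with the largest rises, in which neither motif was found within these bases. Capitals mark E-boxes and, in Hormad1, also 1 E2F-type match. Sycp1 and Slc25a31 also count among the 13 genes with an E2F-type match, which does not lie wholly within their printed bases. The windows are chr3:95559427-95559676 (plus strand) for Hormad1, chr3:102936101-102936350 (minus) for Sycp1, chr3:40708621-40708870 (plus) for Slc25a31, chr6:18109062-18109311 (minus) for Asz1 and chr7:6044911-6045160 (plus) for Nlrp4c.
Hormad1: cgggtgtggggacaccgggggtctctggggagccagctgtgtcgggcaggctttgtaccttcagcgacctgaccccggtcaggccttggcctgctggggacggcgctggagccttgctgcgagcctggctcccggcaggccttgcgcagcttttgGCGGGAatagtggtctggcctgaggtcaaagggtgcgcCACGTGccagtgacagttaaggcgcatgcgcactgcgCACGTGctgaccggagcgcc
Sycp1: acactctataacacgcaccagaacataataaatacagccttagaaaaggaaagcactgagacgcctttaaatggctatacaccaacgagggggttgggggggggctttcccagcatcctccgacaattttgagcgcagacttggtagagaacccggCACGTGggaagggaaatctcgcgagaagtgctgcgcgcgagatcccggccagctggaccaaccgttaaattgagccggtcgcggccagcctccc
Slc25a31: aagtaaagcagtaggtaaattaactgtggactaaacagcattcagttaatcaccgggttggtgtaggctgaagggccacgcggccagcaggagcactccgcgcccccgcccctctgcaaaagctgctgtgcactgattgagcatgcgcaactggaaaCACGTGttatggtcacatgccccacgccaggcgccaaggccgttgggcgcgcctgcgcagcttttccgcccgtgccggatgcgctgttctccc
Asz1: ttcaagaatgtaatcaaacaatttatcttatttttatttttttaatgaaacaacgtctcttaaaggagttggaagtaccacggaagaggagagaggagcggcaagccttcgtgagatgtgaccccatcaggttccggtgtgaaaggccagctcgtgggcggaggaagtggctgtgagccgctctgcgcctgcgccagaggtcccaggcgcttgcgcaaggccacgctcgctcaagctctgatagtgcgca
Nlrp4c: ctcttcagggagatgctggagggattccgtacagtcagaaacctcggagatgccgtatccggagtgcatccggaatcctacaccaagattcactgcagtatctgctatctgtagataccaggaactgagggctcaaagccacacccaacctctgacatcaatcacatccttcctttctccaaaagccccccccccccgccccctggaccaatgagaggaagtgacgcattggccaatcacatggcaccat

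CpG pairs numbered 19 in the printed bases of Hormad1, 17 in Sycp1, 18 in Slc25a31, 15 in Asz1 and 7 in Nlrp4c. Slc25a31, a mitochondrial ADP/ATP carrier gene of the testis, had 59.7 and 39.0 normalised counts in the K365T libraries, against 14.8 and 20.5 in the WT libraries (log2 difference 1.29 ± 0.34, limma adjusted p = 0.027), with an adjusted p of 0.171 without WT replicate 1.

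The Rhox cluster on the X chromosome codes for homeobox factors of reproductive tissue. Of its 32 genes 25 were not members and 7 were. Rhox2a and Rhox10 were members through their K365T counts only, with WT means under 10, so they had to differ and the cluster's counts and median are not read against those of all members. Rhox1, Rhox2a, Rhox5 and Rhox10 rose, and Rhox6 (0.22), Rhox9 (-0.32) and Rhox13 (1.09) did not pass. Rhox2a had 47.5 and 34.9 normalised counts in the K365T libraries, against 2.34 and 7.56 in the WT libraries (log2 difference 2.39 ± 0.40, limma adjusted p = 0.00216), and Rhox1 had 87.3 and 112 in K365T, against 11.7 and 33.5 in WT (log2 difference 2.08 ± 0.48, limma adjusted p = 0.0133). Rhox5 had 160.3 and 228 in K365T, against 60.7 and 115 in WT (log2 difference 1.16 ± 0.34, limma adjusted p = 0.04), and Rhox10 had 16.6 and 25.7 in K365T, against 3.89 and 2.16 in WT (log2 difference 1.82 ± 0.55, limma adjusted p = 0.0463). Rhox2a passed in all 4 leave-one-out fits. Without WT replicate 1 the adjusted p was 0.143 for Rhox1 and 0.318 for Rhox5, and Rhox10 passed in none of the 4, with 0.233 without K365T replicate 2. How reads of near-identical copies in the Rhox, Nlrp4 and Xlr families were assigned is not given in the sources used here.

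Imprinted genes moved in both directions. CTCF binds control regions of several imprinted domains, where it insulates a promoter from enhancers on 1 allele. Of 54 listed genes 45 were members, 6 of which rose and 13 fell, with a median of 0.01, beside 7.08% higher and 5.06% lower over all members. Airn and Xist were members through WT only, with K365T means under 10, and of the 43 others 6 rose and 11 fell. Outside the 4 regions 4 of 41 rose and 13 fell. With the chromosome median subtracted 4 of the 45 passed as higher and 8 as lower, and on TPM values 6 and 7. Leaving out 1 library left 2 to 4 risen and 4 to 8 fallen genes, the fewest fallen without WT replicate 1 and the fewest risen without K365T replicate 2. The summed counts of the list were 54336 and 56259 in K365T, against 74847 and 72207 in WT.

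Peg3, a paternally expressed zinc-finger gene on chromosome 7, fell the most, with 422 and 474 normalised counts in the K365T libraries, against 2697 and 2417 in the WT libraries (log2 difference -2.50 ± 0.25, limma adjusted p = 8.86e-05). Its LIF values were 423 and 255 in R342C and 565 and 457 in Q418R, near those of K365T, so that WT stood apart from all 3 other lines. Usp29, which shares the bidirectional promoter of Peg3, had 198 and 188 in K365T, against 195 and 266 in WT (log2 difference -0.23 ± 0.41, limma adjusted p = 0.773) and did not pass. On chromosome 12 the maternally expressed non-coding genes of the Dlk1-Dio3 domain fell together. Meg3 had 1954 and 1739 in K365T, against 5923 and 5423 in WT (log2 difference -1.62 ± 0.17, limma adjusted p = 0.000107), Rian had 2741 and 3033 in K365T, against 8941 and 7376 in WT (log2 difference -1.49 ± 0.20, limma adjusted p = 0.000462), and Mirg had 287 and 313 in K365T, against 1202 and 979 in WT (log2 difference -1.84 ± 0.37, limma adjusted p = 0.00666). Dlk1, the paternally expressed coding gene of the domain, had 29.8 and 33.9 in K365T, against 19.5 and 18.4 in WT (log2 difference 0.64 ± 0.27, limma adjusted p = 0.145). For each of the 3 non-coding genes both K365T libraries lay far below both WT libraries, while Dlk1 did not pass. Mirg alone of the 3 lost its call in a leave-one-out fit (0.0593 without WT replicate 1).

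The paternally expressed neighbours Peg10 and Sgce on chromosome 6 both rose. Peg10, derived from a retrotransposon and needed in the placenta, had 2279 and 3174 normalised counts in the K365T libraries, against 1187 and 491 in the WT libraries (log2 difference 1.81 ± 0.38, limma adjusted p = 0.00821). Sgce, coding for epsilon-sarcoglycan, had 49.7 and 54.4 in K365T, against 17.1 and 11.9 in WT (log2 difference 1.61 ± 0.24, limma adjusted p = 0.000967). Ppp1r9a, a neighbour in the same domain, had 232 and 271 in K365T, against 157 and 129.7 in WT (log2 difference 0.80). Mest, paternally expressed elsewhere on chromosome 6, had 611 and 762 in K365T, against 217 and 205 in WT (log2 difference 1.67 ± 0.21, limma adjusted p = 0.000369). All 4 genes, like every gene that passed as higher, stood higher in both K365T libraries than in either WT library. Slc38a4, an amino acid transporter gene on chromosome 15, had 6545 and 5502 in K365T, against 12661 and 12661 in WT (log2 difference -1.08 ± 0.14, limma adjusted p = 0.000437), and Nnat, coding for neuronatin, had 6.63 and 19.5 in K365T, against 96.6 and 33.5 in WT (log2 difference -1.96 ± 0.45, limma adjusted p = 0.0132). Sgce, Mest and Slc38a4 passed in all 4 leave-one-out fits, while Peg10 reached 0.098 without WT replicate 2, Nnat 0.149 without WT replicate 1 and Ppp1r9a 0.167 without WT replicate 2. Plagl1 (-0.70), Phlda2 (-0.78), Slc22a18 (-1.26), Airn (-1.37), Herc3 (-0.61), Sfmbt2 (-0.80) and Xist (-1.62) were the other fallen genes, and Ddc (1.44) and Commd1 (0.60), both on chromosome 11, the other risen ones. Each of these 9 lost its call in at least 1 leave-one-out fit, with a highest adjusted p between 0.0718 (Herc3, without WT replicate 1) and 0.241 (Phlda2, without K365T replicate 2). Xist, the RNA that silences an X chromosome in female cells, was low in both groups, with 6.63 and 13.3 in K365T, against 56.1 and 24.9 in WT.

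**Figure D3:**
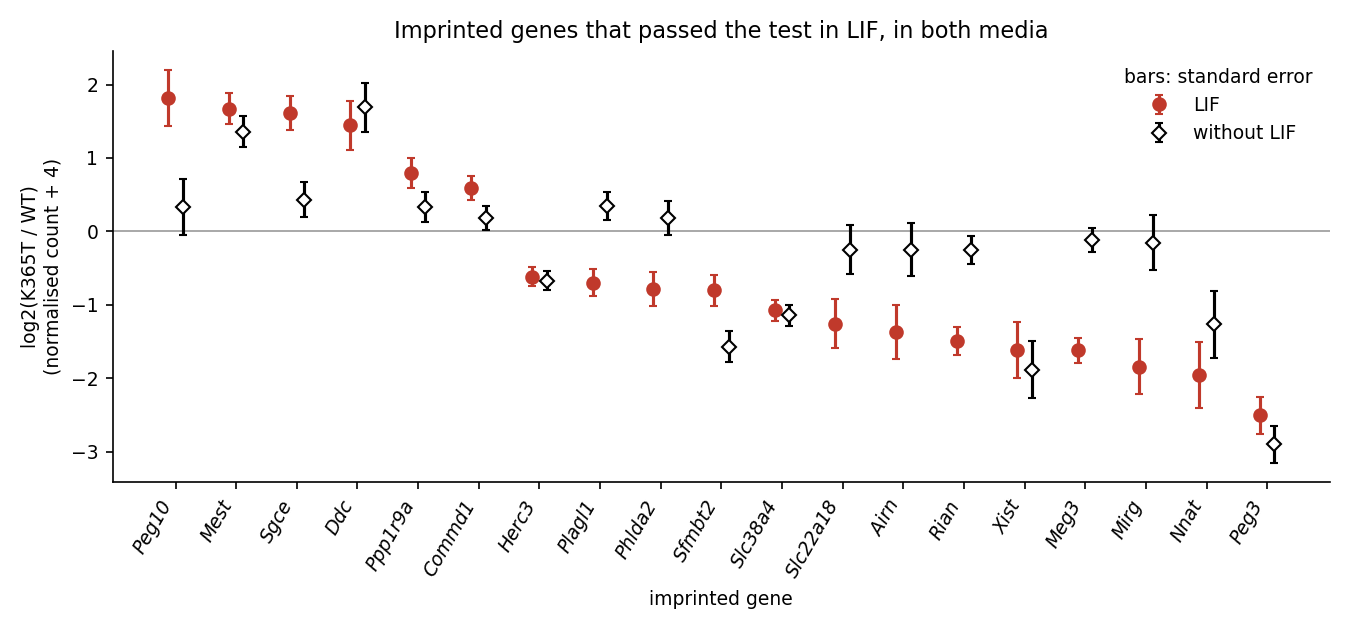
Log2 difference of K365T against WT with its SE for the 19 imprinted genes that passed the test in LIF (filled points), beside their difference without LIF (open diamonds). Peg3, Slc38a4 and Mest keep similar differences in both media (Peg3 -2.50 and -2.90), while Meg3, Rian and Mirg lie between -0.25 and -0.12 without LIF.

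Immediate early genes code mostly for transcription factors that cells switch on soon after a growth stimulus. Of 26 members 4 rose and none fell, beside 7.08% of all members higher. Egr3, Egr4 and Fosl1 were members through K365T only, and of the 23 others 3 rose. Egr1 had 6319 and 16898 normalised counts in the K365T libraries, against 4235 and 147 in the WT libraries (log2 difference 3.69 ± 1.08, limma adjusted p = 0.0405), and Egr2 had 204 and 466 in K365T, against 118 and 4.32 in WT (log2 difference 3.30 ± 0.94, limma adjusted p = 0.0355). In both, WT replicate 2 was many times below WT replicate 1, so that the size of the rise rests on that library. Without it the difference was 1.29 for Egr1 (adjusted p = 0.381) and 1.36 for Egr2 (adjusted p = 0.351). Egr3 had 19.9 and 33.9 in K365T, against 3.12 and 2.16 in WT (log2 difference 2.18 ± 0.45, limma adjusted p = 0.00697). Ier2, on chromosome 8, had 2043 and 3234 in K365T, against 1754 and 814 in WT (log2 difference 1.10 ± 0.33, limma adjusted p = 0.0427). Fos had 1877 and 2344 in K365T, against 968 and 364 in WT and did not pass (log2 difference 1.81 ± 0.84, limma adjusted p = 0.186). Egr3 reached 0.0739 without K365T replicate 2 and Ier2 0.385 without WT replicate 2. Without WT replicate 2 none of the 26 passed, 4 passed without WT replicate 1, and leaving out either K365T library left 2.

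Of 15 members of the list of ERK feedback and ETS genes 3 fell and none rose, beside 5.06% of all members lower. These genes are induced by ERK signalling and many restrain it, and the MEK inhibitor was in the medium of both groups. Dusp6, a phosphatase of ERK, had 132 and 109.8 normalised counts in the K365T libraries, against 484 and 325 in the WT libraries (log2 difference -1.69 ± 0.22, limma adjusted p = 0.000417). Etv1, an ETS transcription factor gene, had 376 and 607 in K365T, against 1677 and 1284 in WT (log2 difference -1.61 ± 0.22, limma adjusted p = 0.000513), and Spry2, coding for an inhibitor of receptor tyrosine kinase signalling, had 2299 and 2638 in K365T, against 5934 and 5028 in WT (log2 difference -1.15 ± 0.24, limma adjusted p = 0.00874). Dusp6 and Etv1 passed in all 4 leave-one-out fits, and Spry2 reached 0.0774 without WT replicate 1.

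Of 20 members of the LIF and STAT3 list 1 rose and 3 fell, beside 7.08% and 5.06% of all members. Ifitm1 had 1928 and 1370.3 normalised counts in the K365T libraries, against 3148 and 3339 in the WT libraries (log2 difference -0.99 ± 0.18, limma adjusted p = 0.0036), and Ifitm3, its neighbour in a cluster of interferon-inducible membrane protein genes, had 449 and 394 in K365T, against 794 and 899 in WT (log2 difference -0.9998 ± 0.20, limma adjusted p = 0.00677). Pramel7, a STAT3 target of naive cells, had 61.9 and 173 in K365T, against 259 and 299 in WT (log2 difference -1.38 ± 0.39, limma adjusted p = 0.0349), and Jak1, the kinase below the LIF receptor, had 3509 and 3850.1 in K365T, against 3033 and 2834 in WT (log2 difference 0.33 ± 0.10, limma adjusted p = 0.0481). Ifitm1 passed in all 4 leave-one-out fits. Without K365T replicate 1 Pramel7 reached 0.3, without WT replicate 2 Ifitm3 reached 0.0627, and Jak1 passed in none of the 4, with 0.269 without K365T replicate 2. Of 16 Wnt targets 1 rose, a share near the 7.08% of all members. It was Ccnd1, coding for cyclin D1, with 996 and 1998 in K365T, against 421 and 549 in WT (log2 difference 1.55 ± 0.31, limma adjusted p = 0.00614) and an adjusted p of 0.0757 without K365T replicate 2.

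In the BMP list, 17 members held 1 riser and 1 faller, shares near the 7.08% and 5.06% of all members. Id4, of the Id family of BMP targets, had 161 and 210.4 normalised counts in the K365T libraries, against 473 and 456 in the WT libraries (log2 difference -1.32 ± 0.26, limma adjusted p = 0.00623). Bmpr2, coding for a BMP receptor on chromosome 1, had 3343 and 3366 in K365T, against 1661 and 1779 in WT (log2 difference 0.96 ± 0.11, limma adjusted p = 0.00025), and passed with the chromosome median subtracted too (0.49). In the Nodal list 1 of 13 fell, beside 5.06% of all members. It was Acvr2b, with 929.6 and 974 in K365T, against 1353 and 1325 in WT (log2 difference -0.49 ± 0.12, limma adjusted p = 0.0171). Acvr2b passed in none of the leave-one-out fits and reached 0.1 without WT replicate 1, and Id4 reached 0.0551 without K365T replicate 1.

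**Figure D4:**
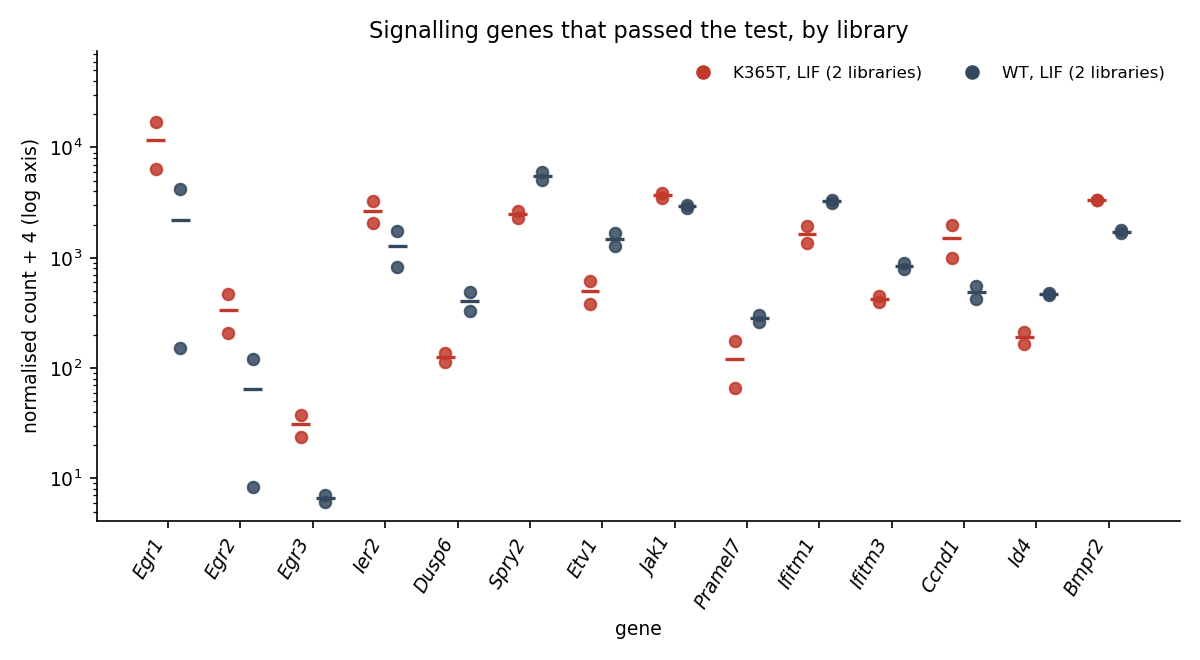
Normalised count plus 4 (log axis) of 14 genes of the signalling lists that passed the test, in the 2 K365T libraries (left of each pair) and the 2 WT libraries in LIF, with short lines at the means. The WT points of Egr1 and Egr2 lie far apart, while those of Dusp6, Spry2 and Ifitm1 lie close together and above both K365T points.

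Of 20 naive pluripotency genes 1 fell, a share near the 5.06% of all members. It was the factor gene Klf5, with 7183 and 6669.8 normalised counts in the K365T libraries, against 10161 and 10499.6 in the WT libraries (log2 difference -0.58 ± 0.17, limma adjusted p = 0.0373), and it passed in none of the leave-one-out fits, reaching 0.187 without K365T replicate 2. Nanog had 22059 and 28412 in K365T, against 18553 and 16330.3 in WT and did not pass (log2 difference 0.52 ± 0.21, limma adjusted p = 0.12). Pou5f1, coding for OCT4, had 11415 and 10709.8 in K365T, against 12991 and 10960.0 in WT (log2 difference -0.11 ± 0.16, limma adjusted p = 0.723), and Sox2 had 9553 and 8416 in K365T, against 10112 and 8943 in WT (log2 difference -0.08 ± 0.15, limma adjusted p = 0.782). The summed counts of the naive list were 190195 and 194180 in K365T, against 171709 and 162813 in WT. Much of this sum was Tfcp2l1 on chromosome 1, with 53262 and 57894 in K365T, against 41067 and 41697 in WT, which did not pass. In the 4 regions lie 7 of the 20 genes, and the list median was 0.10, or -0.05 with the chromosome median subtracted. Of 16 general pluripotency genes 1 rose and of 17 formative and primed genes 1 rose, both shares near the 7.08% of all members. The first was Epcam (0.49), which lies at the end of chromosome 17, did not pass in any leave-one-out fit (0.301 without K365T replicate 1) and turned to -0.33 with the chromosome median subtracted. The other was Lin28b, coding for a protein that blocks let-7 maturation, with 353 and 332 in K365T, against 97.3 and 65.9 in WT (log2 difference 2.04 ± 0.25, limma adjusted p = 0.000331), in all 4 leave-one-out fits. Of 16 genes of the 2-cell-like list 4 were members, 3 of them through K365T only, and among these Usp17la on chromosome 7 rose (log2 difference 1.37) and passed in no leave-one-out fit (0.191 without K365T replicate 2).

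Markers of other cell types are read against the 12.1% of all members that passed, and these lists are short. None of 11 mesoderm, 6 neuroectoderm or 6 fibroblast members passed, and 2 of 15 endoderm and 1 of 13 trophectoderm members did. Among 15 endoderm members Lamb1, a laminin chain gene, rose, with 828 and 802 normalised counts in the K365T libraries, against 386 and 487 in the WT libraries (log2 difference 0.90 ± 0.27, limma adjusted p = 0.0416). Col4a1, a collagen gene within the 4 regions, fell, with 185 and 184 in K365T, against 502 and 420.3 in WT (log2 difference -1.30 ± 0.29, limma adjusted p = 0.0102). Among 13 trophectoderm members Gata2 fell, with 415 and 163 in K365T, against 778 and 1136 in WT (log2 difference -1.84 ± 0.36, limma adjusted p = 0.00575). Lamb1 reached 0.237 without WT replicate 1, Col4a1 reached 0.084 without WT replicate 1 and Gata2 0.0636 without WT replicate 2. The summed counts of the fibroblast members were 1407 and 1030 in K365T, against 1244 and 1263 in WT, and those of the mesoderm members 696 and 705 in K365T, against 663 and 717 in WT. Those of the endoderm members were 14424 and 14204 in K365T, against 15422 and 18445 in WT, and those of the trophectoderm members 6355 and 4965 in K365T, against 6749 and 7485 in WT. None of the 27 Hox members passed in either direction, beside the same 12.1%.

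Among 32 Polycomb genes 5 rose and 3 fell, beside the 12.1% of all members that passed. Outside the 4 regions 3 of 24 rose and 3 fell. With the chromosome median subtracted 3 of the 32 passed as higher and none as lower. Scml2 was described above, and the median of chromosome 1, which holds Rnf2, was 0.47. Rnf2, the catalytic subunit of Polycomb complex 1 on chromosome 1, had 4040.0 and 4397 normalised counts in the K365T libraries, against 2969 and 2752 in the WT libraries (log2 difference 0.56 ± 0.11, limma adjusted p = 0.00515), and Yaf2, one of its partners, had 384 and 355 in K365T, against 209 and 237 in WT (log2 difference 0.72 ± 0.15, limma adjusted p = 0.00863). Phf1, an accessory subunit of Polycomb complex 2, had 351 and 359 in K365T, against 592 and 761 in WT (log2 difference -0.91 ± 0.25, limma adjusted p = 0.0286). Leaving out WT replicate 2 moved the adjusted p to 0.0534 for Rnf2 and 0.206 for Phf1, and leaving out WT replicate 1 moved it to 0.0827 for Yaf2. E2f6, Max, Mga, Pcgf6 and L3mbtl2, which form the variant complex that binds E-box and E2F-type motifs at germline genes, had differences between -0.19 and 0.09, and none passed.

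Of 24 genes of CTCF, cohesin and their regulators 2 rose, Stag3 and Patz1, a share near the 7.08% of all members. Patz1, coding for a zinc-finger protein, had 5081 and 6024 normalised counts in the K365T libraries, against 4214 and 4013 in the WT libraries (log2 difference 0.43 ± 0.10, limma adjusted p = 0.0171) and lies on chromosome 11. It reached 0.171 without K365T replicate 2 and did not pass with the chromosome median subtracted (0.09). Rad21, Smc1a, Smc3 and Stag2, the core of mitotic cohesin, had differences between -0.25 and -0.07, and none passed. Of 19 DNA methylation genes 1 rose, also near that share. It was the demethylase gene Tet3, with 2159 and 2279.7 in K365T, against 1435 and 1901 in WT (log2 difference 0.42 ± 0.13, limma adjusted p = 0.0422) and an adjusted p of 0.373 without WT replicate 1. Dnmt1, Dnmt3a and Dnmt3b, the DNA methyltransferases, did not pass.

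The clustered protocadherins, neuronal adhesion genes whose promoter choice is known to depend on CTCF, were measured in part. No alpha or beta gene was a member. Of 22 gamma genes 13 were members. Of these, 5 were members through K365T only, with WT means under 10, and the 4 gamma genes that rose were all among them, so that their number is not read against all members. None of the 7 with a mean of at least 10 in both groups passed. Pcdhgb4 had 24.3 and 18.5 normalised counts in the K365T libraries, against 7.01 and 1.08 in the WT libraries (log2 difference 1.75 ± 0.47, limma adjusted p = 0.0276), and Pcdhgb5 had 24.3 and 44.1 in K365T, against 5.45 and 10.8 in WT (log2 difference 1.64 ± 0.44, limma adjusted p = 0.0273). Pcdhga10 (1.59) and Pcdhga9 (1.22) were the others. The 4 genes are low and share their last exons, so that their counts may not be independent. Pcdhga10 and Pcdhga9 passed in no leave-one-out fit, with highest adjusted p of 0.148 (without WT replicate 1) and 0.27 (without WT replicate 2), Pcdhgb4 reached 0.241 without WT replicate 2, and Pcdhgb5 0.207 without K365T replicate 2.

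Among 18 proliferation genes 3 rose and 1 fell, beside 7.08% and 5.06% of all members. The risers Mcm3 (9412 and 11022 in K365T, against 7412 and 6169 in WT), Mcm6 (9746 and 11503 in K365T, against 6859 and 5832 in WT) and Mcm5 code for the replicative helicase and lie on chromosomes 1 and 8, and none of the 3 passed with the chromosome median subtracted. Mcm6 passed in all 4 leave-one-out fits and Mcm3 reached 0.129 without WT replicate 2. Mki67, a marker of dividing cells, had 10359 and 10972 normalised counts in the K365T libraries, against 15146 and 14131 in the WT libraries (log2 difference -0.46 ± 0.14, limma adjusted p = 0.0434), and reached 0.213 without WT replicate 1. Of 20 p53 targets 2 fell, beside 5.06% of all members. They were Cdkn1a, the inhibitor of cyclin-dependent kinases, with 3708 and 2719 in K365T, against 4427 and 4860.3 in WT (log2 difference -0.55 ± 0.15, limma adjusted p = 0.0334), and Gadd45a, of the DNA damage response, with 218 and 139 in K365T, against 527 and 329.6 in WT (log2 difference -1.24 ± 0.24, limma adjusted p = 0.00555). Cdkn1a reached 0.304 without K365T replicate 2 and Gadd45a 0.0712 without WT replicate 1. Of 20 ATF4 targets 1 rose, Phgdh of serine synthesis (0.55), and of 13 mitochondrially encoded genes 1 rose, mt-Nd4 (0.43), both shares near the 7.08% of all members. Without WT replicate 1 they reached 0.31 and 0.184. Of 14 Xlr and Nxf genes of the X chromosome Nxf3 and Nxf2 (1.37) rose, and Xlr5c (-1.92) and Xlr3c (-1.24) fell, beside 12.1% of all members that passed. Xlr and Nxf2 were members through K365T only. Xlr3c reached 0.262 without WT replicate 2, and without WT replicate 1 Nxf2 reached 0.298 and without WT replicate 2 Xlr5c 0.19.

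Without LIF the same line differed from WT in 2553 of the 17076 genes (15.0%), 1279 higher (7.49%) and 1274 lower (7.46%). These libraries are not shared with the LIF comparison. Of the 1209 genes higher in LIF 547 were also higher without LIF, which is 45.2% of the LIF list and 42.8% of the list without LIF, and 7 were lower. Of the 864 genes lower in LIF 294 were also lower without LIF, 34.0% of the LIF list and 23.1% of the other, and 6 were higher. Outside the 4 regions 126 of 470 higher genes (26.8%) and 287 of 827 lower genes (34.7%) were shared. Of all 13743 members there, 3.54% were higher and 8.87% lower without LIF. WT replicate 2 without LIF stood apart from the other libraries, with 6.88% of reads in structural RNAs, and without it the count in this medium was 829. Without K365T replicate 2 it was 1218.

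Of the 37 germline members 12 were higher without LIF and none lower, with a median of 0.81, beside 7.49% of all members higher. Among them were 11 of the 21 that rose in LIF, and the other was Hormad2 on chromosome 11, which did not pass in LIF. No germline member passed the test of the difference between the media. Leaving out 1 library of this medium gave 6 to 10 higher members, 7 of them without WT replicate 2. Stag3 had 2342 and 2125 normalised counts in K365T, against 603 and 1016 in WT (log2 difference 1.51, limma adjusted p = 0.00179). Asz1 had 5.27 and 5.70 in K365T, against 1.91 and 1.12 in WT, and did not pass there. Peg3 had 907 and 951 in K365T, against 7533 and 6416 in WT (log2 difference -2.90, limma adjusted p = 5.6e-05). Kdm5d, Scml2 and Nxf3 also stayed higher, by 2.85, 2.36 and 2.67. Of 7 Rhox members 1 fell and none rose without LIF. The count of risen gamma protocadherins in this medium is not read against all members. Pcdhga8, Pcdhga9, Pcdhgb4 and Pcdhgb5, which were among them, were members through their K365T counts in LIF only. Of 13 gamma protocadherins 7 rose, but 2 without WT replicate 2 of this medium and 1 without K365T replicate 2. Of 20 ATF4 targets 8 fell without LIF, beside 7.46% of all members, and none did without either of the same 2 libraries. Of 20 p53 targets 7 rose and 1 fell, beside 7.49% and 7.46% of all members. The number of risen p53 targets moved up or down with the library left out. Of 27 Hox members 6 rose, beside 7.49%, and this number too moved up or down with the library left out.

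The test of the difference between the media found 113 genes (0.662%). A block by replicate number within each medium gave 53. Libraries of a line with the same number in both media deviated together, with correlations of 0.29 to 0.30, while those of different lines ranged from -0.37 to 0.45. A block that joins same-numbered libraries of a line gave 470, a choice made after seeing the data. Leaving out 1 LIF library gave 79 (K365T replicate 1), 28 (K365T replicate 2), 9 (WT replicate 1) and 40 (WT replicate 2), and leaving out 1 library of the other medium gave 31 (WT replicate 2) to 239 (K365T replicate 1). Sh3bgrl had 1321 and 1149 normalised counts in K365T, against 737 and 852 in WT without LIF, where the WT counts exceeded those of K365T in LIF (limma adjusted p of the difference 0.00329). Meg3 without LIF had 8502 and 13421 in K365T, against 12601 and 10661 in WT (adjusted p of the difference 0.0147). Cdkn1a was lower in K365T in LIF and higher without it, with 2697 and 2734 in K365T, against 1197 and 1452 in WT (adjusted p of the difference 0.00978). Rhox5 was higher in LIF and lower without it, with 204 and 267 in K365T, against 457 and 643 in WT (adjusted p of the difference 0.0397).

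**Figure D5:**
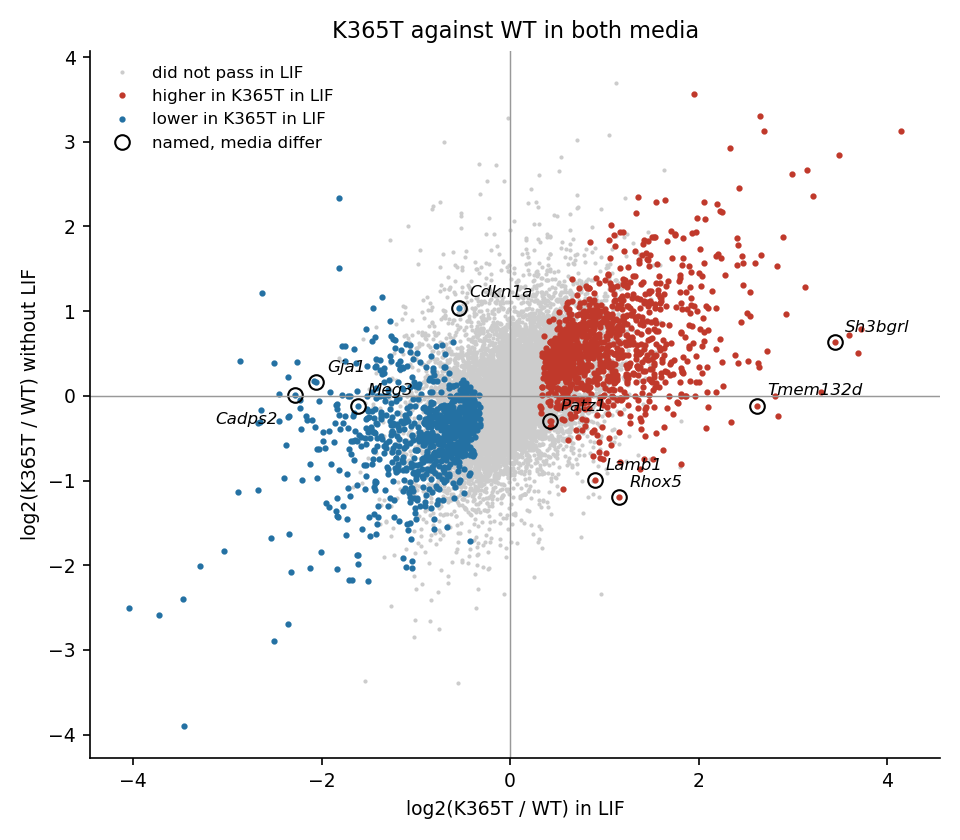
Log2 difference of K365T against WT in LIF (horizontal axis) and without LIF (vertical axis) for the 17076 genes, with the 1209 higher and 864 lower genes of the LIF comparison in colour. Circles mark the 9 genes named here whose difference changed between the media, among them Sh3bgrl at 3.44 in LIF and 0.63 without it and Cdkn1a at -0.55 and 1.04.

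K365T was also set against the lines with R342C and Q418R in LIF. These comparisons share the K365T libraries with the one against WT, so each has its own values here. Against R342C in LIF 1701 genes passed (9.96%), 1004 higher (5.88%) and 697 lower (4.08%) in K365T, and against Q418R 1110 (6.50%), 665 higher (3.89%) and 445 lower (2.61%). Leaving out any 1 of the 4 libraries lowered the count against R342C to between 483 (R342C replicate 2) and 742 (K365T replicate 1), and that against Q418R to between 194 (Q418R replicate 2) and 520 (K365T replicate 2). Of the 37 germline members 14 were higher and none lower against R342C, beside 5.88% of all members higher. Against Q418R, Asz1, Stag3 and Piwil2 were higher, beside 3.89% of all members, and Tex101 was lower. Of the 14 Xlr and Nxf genes 10 were higher against R342C and 2 against Q418R. Xlr and Nxf2 were members through these K365T libraries only, so the 2 counts are not read against all members. Scml2 differed by 3.83 (adjusted p = 2.37e-05) from R342C and 1.98 (adjusted p = 0.00242) from Q418R, and Kdm5d by 4.32 (adjusted p = 3.42e-05) from R342C and 1.74 (adjusted p = 0.0118) from Q418R, all by limma. Clca3b was lower than in either, with differences of -3.40 (adjusted p = 0.000231) from R342C and -3.16 (adjusted p = 0.000781) from Q418R. Brdt had 188 and 167 in R342C and 394 and 299 in Q418R, and Nlrp4c 41.7 and 31.6 in R342C and 351 and 242 in Q418R. K365T was thus above R342C in both genes, while its difference from Q418R did not pass. That difference was 0.23 (adjusted p = 0.742) for Brdt and 0.52 (adjusted p = 0.438) for Nlrp4c by limma. Meg3 had 5497 and 4830.3 in R342C and 4049.8 and 4513 in Q418R, and K365T lay below both, with differences of -1.48 (adjusted p = 0.000261) from R342C and -1.21 (adjusted p = 0.00162) from Q418R. Dusp6 in K365T also lay below both, with differences of -1.50 (adjusted p = 0.00121) from R342C and -1.54 (adjusted p = 0.00169) from Q418R.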

How the data were processed

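Total RNA of 16 libraries was depleted of ribosomal RNA and sequenced as stranded 150 bp pairs from 500 ng, per the labels' protocols. The submitters' processing notes name Trim Galore, STAR and DESeq2 with the build mm10 and give no versions; the counting tool, its use of strand and the annotation are not given in the sources used here. The authors deposited a signal table of gene counts divided by 1 size factor per library (normalised counts) and a table of TPM. Every nonzero normalised count was a whole multiple of 1 value per library within 0.05 (100% of values in all 16), which gave back the reads: 19721363 to 31935381 per library.

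Log2(normalised count + 4) was fitted with limma 3.58.1 in R 4.3.3, with 8 group means over all 16 libraries, a trended prior variance and Benjamini-Hochberg adjustment over 17076 genes. The threshold was 0.05. The fit was tested on simulated data with known changes. edgeR 4.0.16 and DESeq2 1.42.0 on the recovered reads, limma on log2(TPM + 0.5), other filters, pseudocounts and scalings, a replicate block and fits without single libraries or chromosomes were alternatives. Gene positions are from GENCODE M21, and promoters from RefSeq (GRCm38.p6).

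The members and the gene lists were chosen with earlier results of these data known. Genes are named by rule: the 12 largest rises and falls with a mean of at least 100 and no overlap between groups, 6 more of each outside chromosomes 1, 11 and 17, the 4 most abundant called genes of each of those chromosomes (of 17, its end), up to 4 called genes of each list, and genes nearly absent from 1 group; 1 gene that the rule names is not reported here. Others were named after their values were seen: all called members of the germline, imprinted and signalling lists, the genes of chromosome 8 and the Y chromosome, and the uncalled genes given for comparison. Replicate numbers did not pair the K365T and WT libraries in LIF (correlation of deviations from the group means -0.20), while same-numbered libraries of a line in both media had correlations of 0.29 to 0.30 in all 4 lines. Same-numbered libraries of different lines had correlations from -0.37 to 0.45, so the values within lines do not stand apart. The labels give no source for these numbers. The precision is set by 2 libraries per group, and intervals on reads cover counting error only.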

Additional observations from a re-analysis of the deposited data

Results flagged for a closer look

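For 9 named genes the test of the difference between the media passed, so that the K365T effect in LIF differed from that without LIF (limma, adjusted over 17076 genes). All log2 values here are K365T minus WT.

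Sh3bgrl differed by 3.44 ± 0.24 in LIF and 0.63 ± 0.24 without LIF (adjusted p of the difference 0.00329). Tmem132d differed by 2.62 ± 0.40 in LIF and -0.12 ± 0.40 without LIF (0.0443). In both genes the rise passed in LIF alone.

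Cadps2 differed by -2.29 ± 0.28 in LIF and 0.01 ± 0.28 without LIF (adjusted p of the difference 0.0226). Gja1 differed by -2.06 ± 0.31 in LIF and 0.16 ± 0.31 without LIF (0.036). Meg3 differed by -1.62 ± 0.17 in LIF and -0.12 ± 0.17 without LIF (0.0147). These 3 falls did not pass without LIF.

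Rhox5, of the X-linked homeobox cluster, differed by 1.16 ± 0.34 in LIF and -1.20 ± 0.34 without LIF (adjusted p of the difference 0.0397). Lamb1, the laminin chain gene, differed by 0.90 ± 0.27 in LIF and -0.995 ± 0.27 without LIF (0.0369). Cdkn1a, the cell cycle inhibitor, differed by -0.55 ± 0.15 in LIF and 1.04 ± 0.15 without LIF (0.00978). In these 3 genes the difference passed in both media with opposite signs.

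Patz1 differed by 0.43 ± 0.10 in LIF and -0.30 ± 0.10 without LIF, where it did not pass (adjusted p of the difference 0.0397). The count of genes behind these tests was low and moved with single libraries, as given with the comparison of the media. With the replicate block within each medium the difference still passed for Sh3bgrl (0.00823), Cdkn1a (0.0259), Meg3 (0.0402) and Cadps2 (0.0472), and did not for Lamb1 (0.0564), Gja1 (0.0743), Rhox5 (0.0902), Patz1 (0.0902) and Tmem132d (0.0914). With the block joining same-numbered libraries of a line, all 9 passed, with adjusted p between 0.00198 and 0.022.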

How the results depend on the processing

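Of 146 named genes 124 passed in LIF, 41 of these in all 4 leave-one-out fits and 60 in every other alternative run. Over all alternatives, 2658 gene values kept their direction and side of the threshold, 454 lost the call and 6 gained it. With the chromosome median subtracted 4 turned sign: Lamc1 to -0.046, Calm2 to -0.12, Srsf7 to -0.29 and Epcam to -0.33. The 2073 calls in LIF became 776 to 1083 without 1 of its libraries, 2177 without WT replicate 2 of the other medium (added after seeing the data), 1173 without chromosomes 1, 11 and the end of 17 (40.6% higher), 1077 without 8 as well (36.9%), a choice made after seeing the data, and 1084 with the median subtracted (52.1%). Other fits gave 1511 (TPM) to 3108 (8 LIF libraries alone), among them edgeR with 2035 and DESeq2 with 2505.

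Without LIF, 2553 calls became 829 to 2629 without 1 library, and TPM gave 1794, 75.9% higher. The difference between media, 113 genes, became 9 to 239 without 1 library and 37 with TPM. Against R342C the count was 483 to 742 without 1 library and 942 with TPM, and against Q418R 194 to 520 and 688 with TPM (70.3% higher). With TPM the chromosome medians were 0.56 (1), 0.33 (8), 0.46 (11) and 0.90 (end of 17). Without 1 library the median of 8 was 0.19 to 0.21 and that of the end of 17 0.75 to 0.83.

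Replicate numbers did not pair the K365T and WT libraries in LIF (correlation of deviations -0.20). With the replicate block 1792 genes passed in LIF, 2214 without LIF, 53 for the difference between media (470 with a block within each line, added after seeing the data), 1379 against R342C and 822 against Q418R. With the K365T numbers crossed 2065 passed, a choice made after seeing the data. With 2 libraries per group a call near the threshold rests on each library.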

Other observations

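Outside the 4 regions, 6 runs of at least 4 neighbouring members passed in 1 direction in LIF. Chosen after their values were seen, they are given as values. On chromosome 10, between 22158569 and 22374139 in mm10, Raet1e, H60b, C920009B18Rik and Raet1d, which include genes for ligands of the NKG2D receptor of natural killer cells, were all higher in K365T. Their median log2 difference was 2.43 in LIF and 0.97 without LIF. Raet1e had 97.3 and 51.3 normalised counts in the K365T libraries, against 18.7 and 8.64 in the WT libraries (log2 difference 2.14 ± 0.40, limma adjusted p = 0.00404). H60b had 56.4 and 76.0 in K365T, against 9.35 and 4.32 in WT (log2 difference 2.72 ± 0.38, limma adjusted p = 0.000725). With WT counts under 10, H60b was a member through its K365T counts alone and had to differ, which bears on the length and median of this run. The annotated gene of Raet1e spans H60b and Raet1d, so that their counts may share reads.

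On chromosome 7, between 30434982 and 30487223, Aplp1, Kirrel2, Nphs1 and Nphs1os were lower, with a median of -1.54 in LIF and -0.63 without LIF. Aplp1, a relative of the amyloid precursor protein gene, had 1163 and 1069 normalised counts in the K365T libraries, against 2179 and 2003 in the WT libraries (log2 difference -0.90 ± 0.18, limma adjusted p = 0.00697). Nphs1, coding for the kidney slit-diaphragm protein nephrin, had 419 and 584 in K365T, against 1795 and 1480.3 in WT (log2 difference -1.71 ± 0.19, limma adjusted p = 0.000168). Nphs1os is antisense to Nphs1, and reads of the pair cannot be told apart where strand was not used.

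Of the other runs, 2 lie in the Dlk1-Dio3 domain of chromosome 12. The first holds Meg3, Mir3070a, Mir3070b, Mir433 and Rian (median -1.78 in LIF and -0.12 without LIF). The second holds Mir667, Mirg, Mir453 and Mir541 (-1.43 and -0.16). Most of these are microRNA genes by name. Whether their counts share reads with Meg3, Rian and Mirg was not tested, which bears on the length and median of these runs. On the X chromosome, Gm9, Rhox1, Rhox2a and Rhox5 had a median of 2.24 in LIF and 0.41 without LIF, and Nxf2, Zmat1, Gm15023 and AV320801 of 1.35 and 0.76. Rhox2a and Nxf2 were members through K365T only, so they had to differ.

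Gm47647 had 2 and 0 recovered reads in K365T, against 125 and 58 in WT, a ratio of 77.8 times fewer reads in K365T after scaling for depth (95% exact binomial interval 21.2 to 647, counting error only).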
